A study of Homo sapiens with 8 samples.

Results

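The miRNAs described here are both arms of miR-31 and miR-135b, which are known to be raised in colorectal carcinoma. They were chosen by name, not by a rule on their values, but with earlier results of these data known. They are hsa-miR-31-5p, hsa-miR-31-3p, hsa-miR-135b-5p and hsa-miR-135b-3p, and make up 4 of the 1780 mature miRNAs in the count table. Small RNA was sequenced from DLD1 and HT29, established human colorectal adenocarcinoma cell lines, after 6 days as flat monolayers (2D) or as multicellular spheroids (MCS). Each cell line and culture had 2 libraries labelled as biological replicates, 8 in all. DLD1 cells were seeded at 35000 for 2D and 7000 for MCS in RPMI medium, and HT29 cells at 100000 for 2D and 3500 for MCS in DMEM. All 4 groups received fetal bovine serum, and the MCS formed in round-bottom wells coated with agarose. Version 3 of the small RNA kit was used for DLD1 and version 2 for HT29, so that cell line, medium and kit cannot be told apart.

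A miRNA is cut from a hairpin precursor that gives a 5p and a 3p arm. One arm is usually loaded into an Argonaute protein, where bases 2 to 8 (the seed) pair with target mRNAs, while the other is mostly degraded. miR-31-5p is abundant in many colorectal carcinomas and is known to target RASA1, a brake on RAS signalling, and HIF1AN, an inhibitor of hypoxia-inducible factors. miR-135b-5p and its relative miR-135a-5p are known to target APC, the tumour suppressor that restrains Wnt signalling in the intestinal epithelium.

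The mature sequences found in the RefSeq table (GRCh38.p14) are shown first because counts are assigned by sequence, and the seeds, in capitals, separate the 2 families. miR-31-3p is named only. miR-135a-5p is shown as the relative that could share reads with miR-135b-5p.
hsa-miR-31-5p: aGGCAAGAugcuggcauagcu
hsa-miR-135b-5p: uAUGGCUUuucauuccuauguga
hsa-miR-135b-3p: aUGUAGGGcuaaaagccauggg
hsa-miR-135a-5p: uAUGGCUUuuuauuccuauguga
miR-135b-5p and miR-135a-5p are both 23 bases long, share the seed and differ by 1 substitution, C11U, counted from 1 at the 5′ end of miR-135b-5p. Among the mature miRNAs with a sequence in the RefSeq table, no other shares the seed of miR-31-5p. The 21 bases of miR-31-5p are 52.4% G or C, against 34.8% of miR-135b-5p, in which 47.8% of bases are U.

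The hairpins show where the arms lie, with mature arms found in the table in capitals (RefSeq, GRCh38.p14, minus strand, MIR31 at chr9:21512115-21512185 and MIR135B at chr1:205448302-205448398).
MIR31: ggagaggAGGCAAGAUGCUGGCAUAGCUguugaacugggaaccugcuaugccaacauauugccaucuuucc
MIR135B: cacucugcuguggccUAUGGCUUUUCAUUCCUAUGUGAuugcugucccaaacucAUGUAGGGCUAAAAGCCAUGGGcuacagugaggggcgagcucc
In GRCh37, the build the reads were aligned to, MIR31 covers chromosome 9 from 21512114 to 21512184 inside the long non-coding RNA gene MIR31HG, and MIR135B covers chromosome 1 from 205417430 to 205417526 inside LEMD1 and BLACAT1. Neither hairpin overlaps an annotated exon of these genes, so both are intronic.

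The libraries held 10495634 to 26211524 miRNA counts. All 10 miRNAs listed for intestinal epithelium, such as the miR-200 family, were detected in every library, with summed levels of 74067 to 282790 counts-per-million (CPM) of the library total. The 13 miRNAs listed for other cell types, of which 12 are in the table, summed to 64.9 to 287 CPM. The HT29 libraries stood apart by replicate number. miR-10a-5p took 47.3% and 38.5% of counts in the 2D and MCS libraries numbered 1 but 10.6% and 6.57% in those numbered 2. In DLD1 it took 15.2% to 19.0%. Levels below are therefore normalised CPM, scaled by edgeR's upper quartile factors over all 8 libraries, unless CPM of the library total are named.

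miR-31-5p was the most abundant of the 4 in every library and reached far higher levels in HT29 than in DLD1. In DLD1 it stood at 284 and 247 normalised CPM in 2D and at 429 and 382 in MCS. In HT29 it stood at 3313 and 4719 in 2D and at 3842 and 6384 in MCS. Every HT29 library lay above every DLD1 library, and the lowest HT29 value was 7.72 times the highest DLD1 value. By level within each library, miR-31-5p ranked between 88 and 103 in DLD1 and between 26 and 40 in HT29.

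miR-31-3p, the minor arm of the same hairpin, showed the widest gap between the cell lines. In DLD1 its levels were 5.55 and 3.15 normalised CPM in 2D and 4.74 and 4.50 in MCS, from 95 to 129 raw counts. Its levels in HT29 were 397 and 545 in 2D, then 328 and 283 in MCS. No HT29 value overlapped those of DLD1, and the lowest HT29 value was 50.9 times the highest DLD1 value.

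miR-135b-5p was the least separated of the 4. In DLD1 2D it reached 19.8 and 10.9 normalised CPM, and in DLD1 MCS 21.1 and 27.5. In HT29 2D it reached 44.1 and 164, and in HT29 MCS 77.9 and 366. The lowest HT29 value was 1.61 times the highest DLD1 value, and the HT29 libraries numbered 2 lay far above those numbered 1 in both cultures.

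miR-135b-3p was close to the limit of detection in DLD1, with 22 to 41 raw counts, or 1.03 and 1.09 normalised CPM in 2D and 0.947 and 1.61 in MCS. In HT29 it stood at 31.4 and 21.7 in 2D and at 33.5 and 25.6 in MCS. All HT29 libraries again lay above all DLD1 libraries, with a ratio of 13.5 between the nearest values. In all, 4 of the 4 members had their HT29 libraries above their DLD1 libraries, against 28.2% of the 397 miRNAs compared.

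Group means give the order of the levels in each cell line. In DLD1 the order was miR-31-5p (266 ± 26.2 in 2D, 406 ± 33.2 in MCS, each with SD and n = 2), miR-135b-5p (15.3 ± 6.28 and 24.3 ± 4.55), miR-31-3p (4.35 ± 1.70 and 4.62 ± 0.165) and miR-135b-3p (1.06 ± 0.0420 and 1.28 ± 0.470). In each DLD1 culture, neighbours in this order did not overlap. In HT29 the order was miR-31-5p (4016 ± 994 and 5113 ± 1798), miR-31-3p (471 ± 104 and 305 ± 31.8), miR-135b-5p (104 ± 84.5 and 222 ± 203) and miR-135b-3p (26.6 ± 6.87 and 29.5 ± 5.54). miR-31-3p therefore stood above miR-135b-5p in HT29 and below it in DLD1, but its values overlapped those of miR-135b-5p in HT29 MCS, where miR-135b-5p ranged from 77.9 to 366. Ligation in library preparation favours some sequences, so the order of different miRNAs within a library is that of reads.

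**Figure D1:**
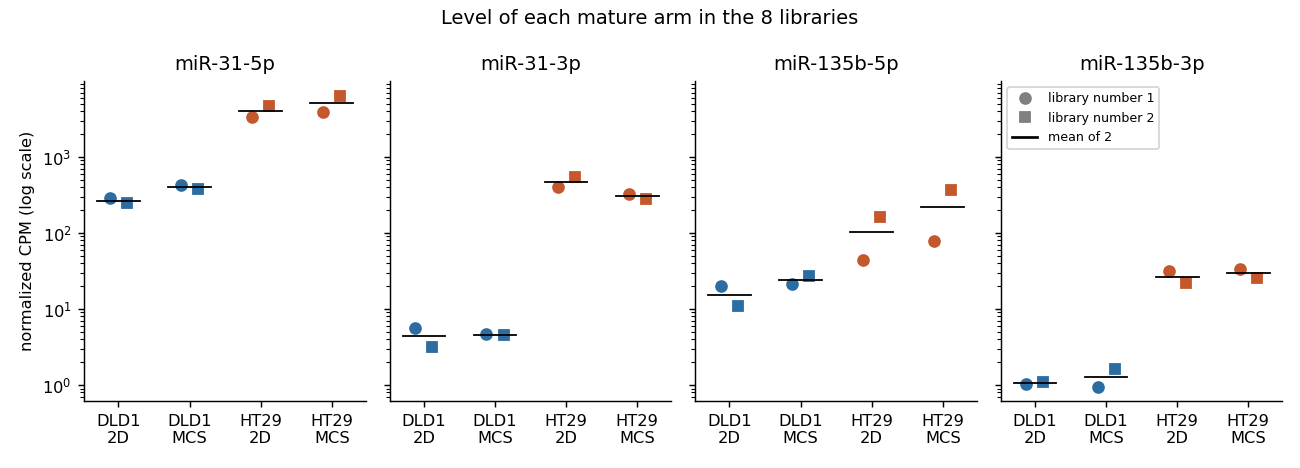
Normalised CPM of the 4 miRNAs in each of the 8 libraries (log axis), by cell line and culture, with each point a library. miR-31-5p, miR-31-3p and miR-135b-3p show a wide gap between DLD1 and HT29, whereas miR-135b-5p runs from 10.9 to 27.5 in DLD1 and from 44.1 to 366 in HT29, with the HT29 libraries numbered 2 on top.

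All 4 miRNAs were called higher in HT29 than in DLD1 in 2D and again in MCS by edgeR's quasi-likelihood test, with calls made at an adjusted p (Benjamini-Hochberg) under 0.05 and a change of 1.5-fold or more. Both 3p arms entered this test through their HT29 levels alone. Of the 397 miRNAs tested, 61.7% were called in 2D, 30.2% higher and 31.5% lower in HT29, and 59.7% in MCS, 27.7% higher and 32.0% lower. miR-31-3p rose most, by 6.76 on the log2 scale in 2D (SE 0.48, adjusted p = 9.94e-05, 109-fold) and 6.04 in MCS (SE 0.46, adjusted p = 0.000120, 66.0-fold). Ordered from the most positive difference, these were numbers 11 and 13 of the 397.

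miR-135b-3p was 24.7-fold higher in HT29 in 2D (log2 4.63, SE 0.47, adjusted p = 0.000249) and 23.0-fold higher in MCS (log2 4.52, SE 0.46, adjusted p = 0.000246). miR-31-5p was 15.1-fold higher in 2D (log2 3.92, SE 0.40, adjusted p = 0.000249) and 12.6-fold higher in MCS (log2 3.66, SE 0.39, adjusted p = 0.000246). miR-135b-5p was 6.81-fold higher in 2D (log2 2.77, SE 0.87, adjusted p = 0.0261) and 9.14-fold higher in MCS (log2 3.19, SE 0.88, adjusted p = 0.0152). For both hairpins the estimate of the minor 3p arm exceeded that of the 5p arm. The test of the arm ratio, given with the arm shares, missed the adjusted threshold for both, as for all 122 hairpins compared. The difference of miR-135b-5p carries the largest standard error of the 4 in both cultures.

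The HT29 replicates set how far the miR-135b-5p difference can be read. Scaled by library totals alone, its lowest HT29 level was 17.5 CPM against a highest DLD1 level of 29.0 CPM, so that the cell lines overlapped, and it was not called in 2D (log2 2.30, adjusted p = 0.163) or MCS (log2 3.16, adjusted p = 0.0802) by edgeR. Without HT29 replicate 2 of 2D the difference in 2D was 1.51 (adjusted p = 0.146), and without replicate 2 of MCS the difference in MCS was 1.67 (adjusted p = 0.104). The difference in 2D was also not called without DLD1 replicate 1 or 2 of 2D or of MCS, nor that in MCS without DLD1 replicate 1 or 2 of MCS. The estimate for miR-135b-5p was 3.44 in 2D and 3.95 in MCS with both HT29 libraries numbered 1 left out, and 1.57 and 1.61 with both numbered 2 left out. These leave 1 HT29 library per culture, assumed to vary like the DLD1 replicates, so that calls there carry no HT29 spread. On library totals alone, 16.1% of the 397 miRNAs had all HT29 libraries above all DLD1 libraries, and miR-31-5p, miR-31-3p and miR-135b-3p were among them, with nearest values 2.39, 19.4 and 7.51 times apart.

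**Figure D2:**
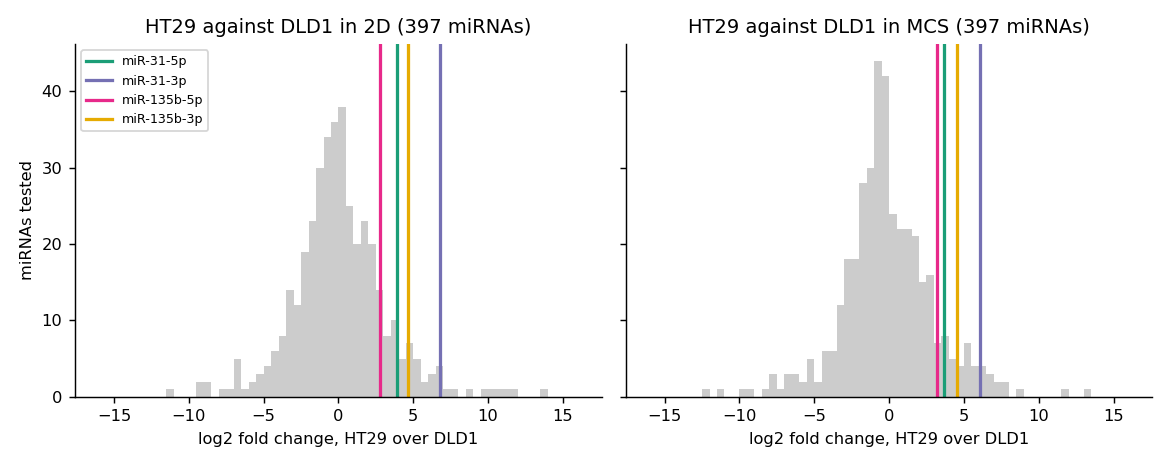
Histograms of the log2 fold change of HT29 against DLD1 over the 397 miRNAs tested, in 2D and in MCS. A vertical line marks each of the 4 miRNAs. All 8 values lie above 0, from 2.77 for miR-135b-5p to 6.76 for miR-31-3p, both in 2D.

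In DLD1, miR-31-5p rose in cells cultivated in MCS. Both MCS libraries lay above both 2D libraries, at 1.51 and 1.54 times the 2D library of the same number, and 46.0% of the 346 miRNAs tested in DLD1 had the same order, against 27.2% with both MCS libraries below. The fold change was 1.54 (log2 0.62, SE 0.23, adjusted p = 0.0208, edgeR's quasi-likelihood test). Of these 346 miRNAs, 41.3% were called, 29.8% higher and 11.6% lower, the median log2 fold change was 0.23, and miR-31-5p was number 107 when ordered from the largest rise.

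The call of miR-31-5p depended on the scaling. The change was 0.51 on the log2 scale with RLE factors, 0.27 with library totals alone and 0.43 with TMM factors, and none of these was called. On library totals its levels were 418 and 364 CPM in 2D and 551 and 394 CPM in MCS, so that the cultures overlapped. Relative to the upper quartile factors, these scalings moved the median of all tested miRNAs by -0.12, -0.37 and -0.21. Without any 1 of the 4 DLD1 libraries the value ranged from 0.38 to 0.64, and edgeR's adjusted p from 0.0538 to 0.413.

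**Figure D3:**
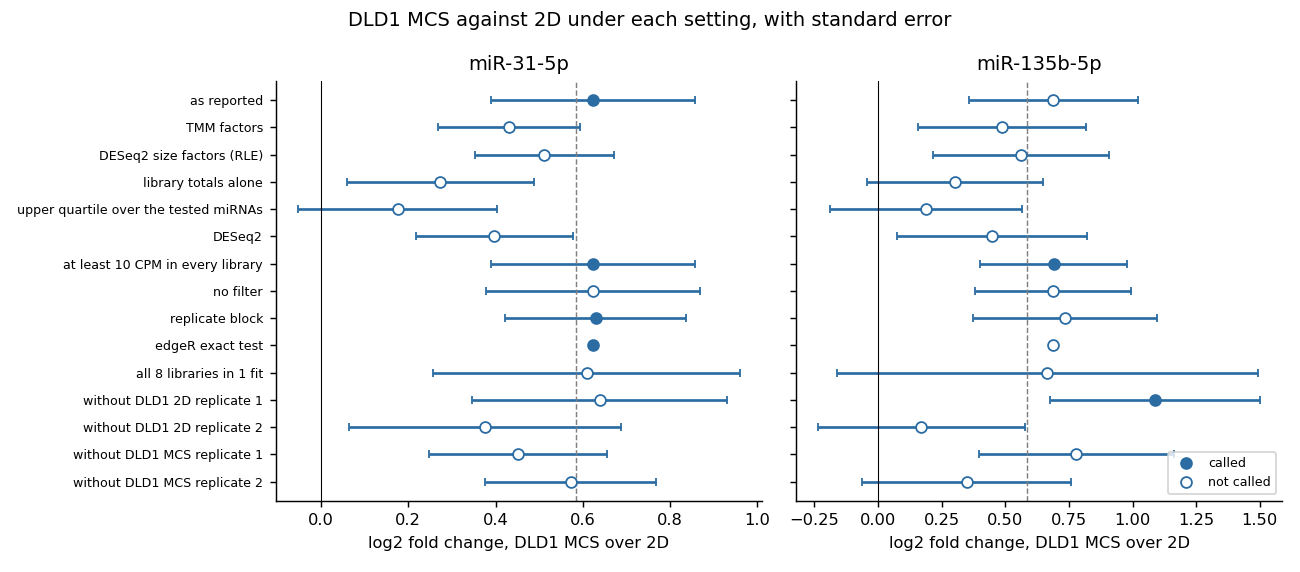
Log2 fold change of MCS against 2D in DLD1 for miR-31-5p and miR-135b-5p as reported and under each alternative setting, with filled points for called values. miR-31-5p stays above 0 throughout but falls to 0.18 when the upper quartile is taken over tested miRNAs alone.

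miR-135b-5p was not called in DLD1. Both MCS libraries lay above both 2D libraries (27.5 and 21.1 against 19.8 and 10.9 normalised CPM), as for 46.0% of miRNAs tested. The fold change of miR-135b-5p was 1.61 (log2 0.69, SE 0.33, adjusted p = 0.0826 by edgeR's quasi-likelihood test). On library totals alone the log2 value was 0.30, and the cultures overlapped, at 29.0 and 16.0 CPM in 2D against 27.1 and 28.3 CPM in MCS. Taking the upper quartile over tested miRNAs alone gave 0.19. The ratio was 1.07 between the libraries numbered 1 and 2.53 between those numbered 2. The lowest library, 2D replicate 2, carried much of this, since the value was 0.17 without it and 1.09 without 2D replicate 1. miR-31-3p and miR-135b-3p, with mean levels of 5.88 and 1.5 CPM in DLD1, were below the minimum of 10 CPM and were not tested there, and for both the 2D and MCS libraries overlapped.

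In HT29 none of the 4 miRNAs was called between MCS and 2D, and 0.0% of the 301 miRNAs tested were called, with 12 at an unadjusted p under 0.05. DESeq2 called 12 of all tested miRNAs and edgeR's exact test 5, without any of the 4. miR-135b-5p had the largest estimate of them, 1.16 on the log2 scale (SE 1.02), and was number 20 of 301 from the largest rise. miR-31-5p had 0.40 (SE 0.50), miR-135b-3p 0.20 (SE 0.46) and miR-31-3p -0.58 (SE 0.43), all with an adjusted p of 0.977 by edgeR's quasi-likelihood test.

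Within the same replicate number, the MCS library was 1.76 and 2.23 times the 2D library for miR-135b-5p and 1.16 and 1.35 times for miR-31-5p. For miR-31-3p it was 0.824 and 0.519 times. Both MCS libraries lay below both 2D libraries for miR-31-3p, as for 12.3% of the miRNAs tested in HT29, against 17.3% with both MCS libraries above. In normalised CPM the cultures overlapped for the other 3, and the 2 arms of miR-31 moved in opposite directions without either passing the test. On library totals alone the cultures overlapped for miR-31-3p as well. Its levels were then 158 and 681 CPM in 2D and 187 and 349 CPM in MCS. The estimates on that scale were -0.65 for miR-31-3p and 0.48 for miR-31-5p, neither called.

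The spread between HT29 replicates was wider than the difference between cultures for miR-135b-5p. The library numbered 2 was 3.71 times the library numbered 1 in 2D and 4.69 times in MCS. These gaps of 1.88 and 2.22 on the log2 scale ranked 11 and 6 from the top among 301 miRNAs, whose median absolute gaps were 0.63 and 0.73. For miR-31-5p the ratios were 1.42 and 1.66, close to the median gap of all miRNAs, and miR-135b-3p ran the other way, at 0.691 and 0.766. That direction depended on the scaling. On library totals alone the ratios of miR-135b-3p were 2.17 in 2D and 1.66 in MCS. Those of miR-31-5p were then 4.48 and 3.59, and those of miR-135b-5p 11.7 and 10.2. In DLD1 the median absolute gaps were 0.21 in 2D and 0.23 in MCS, and miR-135b-5p had gaps of -0.83 and 0.38. The part of the miR-10a-5p share in these gaps was not tested.

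**Figure D4:**
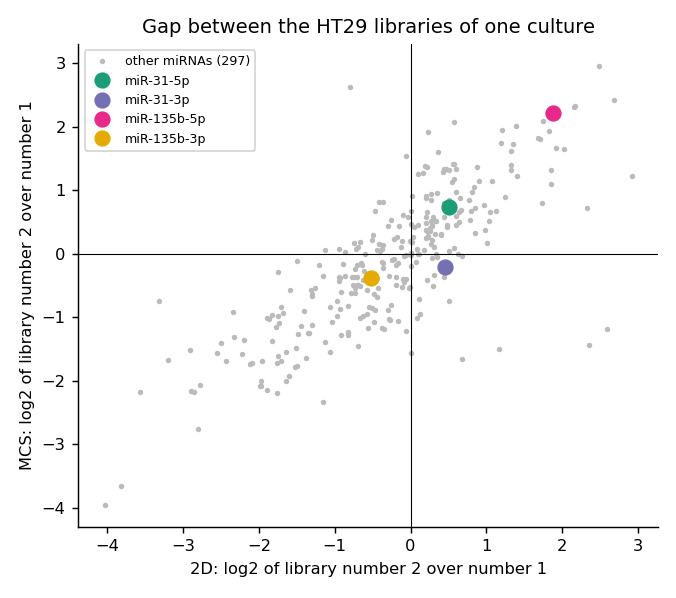
Log2 ratio of the HT29 library numbered 2 to that numbered 1, in 2D (horizontal axis) against MCS (vertical axis). The 4 miRNAs are marked among the 301 tested in HT29. miR-135b-5p sits at 1.88 in 2D and 2.22 in MCS, beyond the 95th percentile of all miRNAs (1.73 and 1.72, not drawn).

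The response to MCS was compared between the cell lines as an interaction over all 8 libraries. The response of HT29 minus that of DLD1 was -0.26 (SE 0.48, adjusted p = 0.917) for miR-31-5p and 0.43 (SE 1.19, adjusted p = 0.947) for miR-135b-5p by edgeR. Neither was called, nor were any of the 250 miRNAs tested (0.0%, with 23 at an unadjusted p under 0.05, 21 called by DESeq2 and 1 with TMM factors). Thus the rise of miR-31-5p in DLD1 was not shown to differ from its change in HT29. Beside it, 8 of the 10 miRNAs listed for intestinal epithelium were called higher in DLD1 MCS, against 29.8% of all miRNAs tested, and 0 of 10 were called in HT29, against 0.0%. Of the miRNAs listed for other cell types, 1 of 2 tested was called higher in DLD1 and 0 of 3 were called in HT29, against the same shares. The part of these lists in the change of miR-31-5p was not tested, and in bulk RNA a change in the share of some cells cannot be told apart from a change per cell.

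The balance of the arms is free of library scaling, since both arms come from one library. It is not free of ligation, which favours some sequences, and the kit version cannot be told apart from the cell line. miR-31-3p made up 1.92% (95% Wilson interval 1.61 to 2.27) and 1.26% (1.05 to 1.5) of miR-31 counts in DLD1 2D, and 1.09% (0.907 to 1.31) and 1.16% (0.954 to 1.42) in DLD1 MCS. In HT29 it made up 10.7% (10.2 to 11.2) and 10.3% (10.2 to 10.5) in 2D, and 7.86% (7.53 to 8.19) and 4.24% (4.14 to 4.35) in MCS. These intervals cover counting error only, since reads copied from one molecule were not set apart.

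The 3p share of miR-31 was 1.36% ± 0.378 in DLD1 and 8.29% ± 2.98 in HT29 (SD, n = 4), without overlap. The log2 ratio of 5p to 3p fell from a mean of 6.21 in DLD1 to 3.56 in HT29, a difference of -2.66 (2-sided exact permutation p = 0.0286, the smallest that 4 libraries against 4 allow). Adjusted over the 122 hairpins with both arms compared, this p was 0.0612 and missed the threshold. No hairpin had a smaller adjusted p, since all 57 without overlap between the cell lines shared the unadjusted p of 0.0286. The miss therefore does not set miR-31 apart. HT29 lay wholly above DLD1 in the 3p share for 24.6% of the 122 hairpins. The cell lines did not overlap in either direction for 46.7%, and the median difference was 0.14. miR-31 ranked 11 of 122 in its shift toward 3p.

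In each cell line, the 3p share of miR-31 lay below the 2D libraries in both MCS libraries. The same held for 22.9% of hairpins in DLD1 and 13.3% in HT29, and the exact permutation p was 0.333 in each cell line, the smallest that 2 libraries against 2 allow. The DLD1 intervals of 2D replicate 2 and both MCS libraries overlapped, whereas that of 2D replicate 1 (1.61 to 2.27) lay above both MCS intervals. Those of HT29 2D and MCS did not overlap. Nor did those of the HT29 MCS replicates with each other (7.53 to 8.19 and 4.14 to 4.35). Covering counting error only, the intervals do not measure the difference between cultures.

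miR-135b-3p made up 4.97% (3.36 to 7.29) and 9.13% (6.80 to 12.2) of miR-135b counts in DLD1 2D, and 4.31% (2.86 to 6.43) and 5.54% (3.99 to 7.64) in DLD1 MCS. In HT29 the 3p share was 41.6% (36.3 to 47.1) and 11.7% (10.9 to 12.5) in 2D, and 30.1% (26.7 to 33.6) and 6.55% (6.04 to 7.11) in MCS. The libraries numbered 1 held the high HT29 values in both cultures, and MCS replicate 2 fell inside the DLD1 range. The log2 ratio of 5p to 3p differed by -1.90 between the cell lines (2-sided exact permutation p = 0.0571, adjusted over the 122 hairpins 0.104). The 3p share of miR-135b in HT29 thus differed more between replicate numbers than between cultures.

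**Figure D5:**
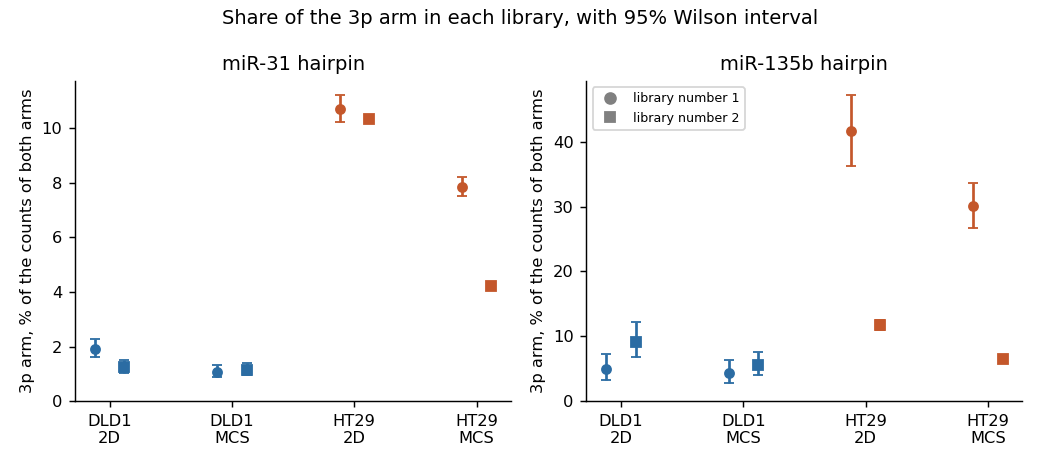
Share of the 3p arm (percent of the counts of both arms) for miR-31 and miR-135b in each library, with 95% Wilson intervals. The miR-31 share lies between 1.09% and 1.92% in DLD1 and between 4.24% and 10.7% in HT29, while that of miR-135b spans 6.55% to 41.6% in HT29.

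miR-135a-5p, which differs from miR-135b-5p only by C11U, had fewer counts than miR-135b-5p in every library. It had 146 and 243 raw counts in DLD1 2D, 64 and 22 in DLD1 MCS, and 0 to 18 in HT29. On library totals its level was 9.23 and 9.54 CPM in DLD1 2D and 3.54 and 1.08 CPM in DLD1 MCS, so that both MCS libraries lay below both 2D libraries, whereas those of miR-135b-5p overlapped on this scale. Its mean was under 10 CPM in both cell lines and it was not tested. How reads that match both were counted is not given in the sources used here, so their counts are uncertain with respect to each other, most of all in DLD1 2D.

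The miRNAs with the pattern most like miR-31-5p over the 8 libraries were miR-17-3p, the minor arm of a miR-17/92 cluster member, miR-96-5p of the miR-183 cluster, and miR-452-5p. Their centred log2 levels differed from those of miR-31-5p by a root mean square of 0.34, 0.39 and 0.65, against a median of 2.02 over 250 miRNAs. miR-96-5p, for example, stood at 180 and 109 normalised CPM in DLD1 2D, at 236 and 206 in DLD1 MCS, and at 2488 to 3762 in HT29.

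For miR-135b-5p the nearest were miR-32-5p (0.35), miR-19a-3p (0.54) and miR-339-5p (0.54), against a median of 1.77. miR-32-5p showed the same split of the HT29 replicates, with 57.3 and 372 normalised CPM in 2D and 87.3 and 468 in MCS. Its DLD1 levels were 27.3 and 16.4 in 2D and 48.0 and 46.3 in MCS. All these values share the libraries and their scaling with the 2 members.

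A further 20 miRNAs known as raised in colorectal carcinoma were set beside miR-31 and miR-135b. In DLD1, 18 were tested, of which 5 were called higher in MCS and 1 lower, against 29.8% and 11.6% of all miRNAs tested, with a median log2 fold change of 0.18 against 0.23 over all tested miRNAs. The 5 were miR-203a-3p (2.06 on the log2 scale), the miR-183 cluster members miR-182-5p (0.97), miR-183-5p (0.73) and miR-96-5p (0.62), and miR-19b-3p (0.61). miR-18a-5p, which like miR-19b-3p belongs to the miR-17/92 cluster, was the 1 called lower (-0.61). The split turned with the scaling, to 2 higher and 3 lower under TMM scaling and to 2 higher and 4 lower on library totals. That of all 346 miRNAs tested turned as well, to 76 higher and 62 lower under TMM scaling and 60 and 83 on library totals. In HT29, 0 of 19 were called, with a median of -0.08 against 0.03 over all tested miRNAs.

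Between the cell lines, 8 of 19 raised miRNAs were called higher and 2 lower in HT29 in 2D, and 9 of 19 higher and 2 lower in MCS. Of all miRNAs tested, 30.2% were called higher and 31.5% lower in 2D, and 27.7% and 32.0% in MCS. Their median differences were 0.95 and 0.94, against -0.11 and -0.42 over all tested miRNAs. With library totals alone, 3 of the raised miRNAs were called higher and 4 lower in 2D, and 4 higher and 5 lower in MCS. Of all 397 miRNAs tested, 51 were then called higher and 142 lower in 2D, and 57 and 106 in MCS. On this scale the medians of the raised miRNAs were 0.054 and 0.64, against -1.03 and -0.75 over all tested miRNAs. miR-552-3p, which had 0 counts in both DLD1 2D libraries, had 381 and 2204 in HT29 2D. Next in size in 2D were miR-96-5p, miR-20a-5p and miR-17-5p, at 4.48, 3.72 and 2.67 on the log2 scale. miR-31-5p, at 3.92 in 2D, would stand between miR-96-5p and miR-20a-5p.

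Another 16 miRNAs are known as lowered in colorectal carcinoma, among them miR-143-3p and miR-145-5p, which are made mainly by smooth muscle and fibroblasts. In DLD1, 6 reached the minimum level. Of these, miR-9-5p (3.02 on the log2 scale), miR-375 (1.24) and miR-195-5p (0.84) were called higher in MCS, and miR-30a-5p (-2.50) and miR-139-5p (-1.74) lower, against the same 29.8% and 11.6%, with a median of 0.31 against 0.23 over all tested miRNAs. In HT29, 0 of 4 were called, with a median of 0.88 against 0.03. Between the cell lines, 1 of 7 was called higher and 4 lower in HT29 in 2D, and 2 higher and 3 lower in MCS, with medians of -1.34 and -0.79, against the shares and medians of all miRNAs given above. The 4 with the largest called differences in 2D were miR-1-3p, a muscle miRNA, at 6.28 on the log2 scale, miR-139-5p at -5.31, miR-9-5p at -4.78 and miR-195-5p at -2.48. Thus miR-1-3p lay on the same side as all 4 arms of miR-31 and miR-135b, and the other 3 on the opposite side.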

How the data were processed

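The authors used Cutadapt to trim reads and remove those of short length or low quality, and Bowtie2 to align them to GRCh37, then to miRBase mature miRNAs. They deposited raw counts of reads on each mature miRNA, neither normalised nor pooled. The submitters' processing notes name cutadapt 1.11, Bowtie2 2.1.0, CASAVA 1.8.3 and edgeR 3.4.2. The use of strand and the counting of reads matching several miRNAs are not given in the sources used here. The 15 HT29 entries that name no miRNA (2590 counts in 2D replicate 2, 0.00988% of that library, and 0 elsewhere) were left out. Single-library tables and the joint table were compared over 12572 values, of which 0 differed.

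Groups came from the labels. The quasi-likelihood test of edgeR 4.0.16 was run in R 4.3.3 (limma 3.58.1). MCS against 2D was tested separately for DLD1 and HT29 with upper quartile factors over miRNAs with at least 1 count, and cell lines and the interaction were tested over all 8 libraries, without a replicate term. MiRNAs entered MCS against 2D with a mean of at least 10 CPM in that cell line. This mean was needed in either cell line to compare the cell lines, and in each for the interaction. Calls were made at an adjusted p-value (Benjamini-Hochberg) under 0.05 and a change of 1.5-fold or more. Standard errors are the log2 fold change divided by the square root of F. P-values of edgeR rest on the spread between replicates, pooled over the groups of a fit and shared across miRNAs. Depth limits precision less than this spread except where counts are low, as for miR-135b-3p in DLD1. The permutation test between cell lines takes the 4 libraries of a cell line as 1 group. Arms were compared as log2 ratios of counts plus 0.5 with exact permutation tests. The quasi-likelihood test was tested on simulated data for each comparison.

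The members and lists (miRNAs raised or lowered in colorectal carcinoma, of intestinal epithelium and of other cell types) were chosen with earlier results of these data known. Other miRNAs named are the 3 nearest in pattern (root mean square difference of centred log2 of normalised CPM plus 0.5), those sharing a seed, miR-10a-5p, and per list at most the 4 called with the largest change. miR-19b-3p, miR-18a-5p and miR-195-5p were added to complete a count after their values were seen. The alternatives were TMM, RLE, library totals, an upper quartile over tested miRNAs, DESeq2 1.42.0, edgeR's exact test, other filters, all libraries in 1 fit, the replicate number as a block and each library left out. Leaving out both HT29 libraries of 1 number was chosen after seeing the data. Levels and figures used Python 3.11.15, pandas 2.3.3, numpy 2.4.6, scipy 1.17.1 and matplotlib 3.10.9.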

Additional observations from a re-analysis of the deposited data

How the results depend on the processing

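The higher levels of miR-31-5p, miR-31-3p and miR-135b-3p in HT29 were called under every alternative in which they were tested, miR-31-5p at 3.21 to 4.28 on the log2 scale in 2D and 3.41 to 4.06 in MCS with all libraries kept, and at 3.62 to 4.14 and 3.23 to 4.01 with 1 left out. Under a minimum of 10 CPM in every library the 3p arms were not tested, and 2 of 2 tested members were called in each culture. With each library left out in turn, 3 to 4 members were called, and miR-135b-5p ranged from 1.51 to 3.41 in 2D and from 1.67 to 3.94 in MCS. With library totals alone it was 2.30 in 2D and 3.16 in MCS, neither called.

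The rise of miR-31-5p in DLD1 was not called with TMM (0.43) or RLE factors (0.51), library totals alone (0.27), upper quartiles of tested miRNAs (0.18), DESeq2 (0.40), no filter (0.62) or all 8 libraries in 1 fit (0.61), so that 0 members were called in each. RLE kept an adjusted p of 0.0337 below the fold change threshold. Without a filter more miRNAs were tested. The unadjusted p of edgeR's quasi-likelihood test also went from 0.00795 to 0.0114, and the SE from 0.234 to 0.246. The causes of the losses other than with RLE were not tested. With at least 10 CPM in every library miR-135b-5p was also called (0.69, 2 members). With each library left out the values were 0.38 to 0.64 for miR-31-5p, 0.17 to 1.09 for miR-135b-5p and 0 to 1 members called. Counts of all miRNAs called in DLD1 ranged from 30 with all libraries in 1 fit to 171 without a filter, against 143 as reported. The split of calls was 103 higher and 40 lower as reported, 76 and 62 with TMM factors, 89 and 50 with RLE, 60 and 83 with library totals, and 49 and 93 with upper quartiles of tested miRNAs.

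In HT29, miR-135b-3p was -0.025 with upper quartiles of tested miRNAs. With each library left out the values were -0.14 to 0.49 for miR-135b-3p, -0.064 to 0.71 for miR-31-5p and -0.42 to 2.29 for miR-135b-5p. The interaction of miR-31-5p was 0.21 with library totals and 0.24 with upper quartiles of tested miRNAs, and -0.66 to 0.13 with each library left out, against -1.09 to 1.70 for miR-135b-5p. The log2 ratio of the arms of miR-135b, left out likewise, was -2.47 to -1.36 between the cell lines and -0.48 to 2.13 between HT29 cultures. Between the cell lines in 2D, 245 miRNAs were called as reported (120 higher and 125 lower), 51 higher and 142 lower with library totals, 94 with at least 10 CPM in every library and 409 without a filter. In MCS 237 were called (110 higher and 127 lower), 57 higher and 106 lower with library totals, and 89 and 388 with these filters.

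With the replicate number as a block, miR-135b-5p in HT29 was 1.04 (SE 0.32, adjusted p = 0.0110 by edgeR), and 1 member and 47 of all miRNAs were called, against 0. The deviations of same-numbered libraries correlated at 0.788 in HT29 and 0.335 in DLD1 across miRNAs, over 2 pairs per cell line, and the labels say only that they share a number. Without a filter, 15 of all miRNAs were called in HT29. The interaction gave 40 calls over all miRNAs with the block, 21 without a filter, and 34 or 68 without both HT29 libraries numbered 1 or 2, where the lone HT29 libraries are assumed to vary like the DLD1 replicates, against 0. No other member's call changed with the block. With 2 libraries a group, exact permutation tests cannot pass 0.05, and 22 to 41 counts of miR-135b-3p in DLD1 cannot show a modest difference between cultures.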
